A study of Mus musculus with 8 samples.

Results

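A group of 9 genes of the complement system was examined in bone marrow-derived macrophages (BMDMs), namely C1qa, C1qb, C1qc, C2, C3, C3ar1, C5ar1, Cfb and Cfp. They were found by name, and each has a row among the 23761 genes of the deposited expression table. Marrow cells of 3-month-old mice on a C57BL/6J background were grown into macrophages for 6 days in medium conditioned by L929 fibroblasts, and total RNA was sequenced. LysM mice (LysM Cre/Cre, 4 libraries) have Cre recombinase inserted into the lysozyme M gene, whereas K2KO mice (LysM Cre/Cre KLF2 flox/flox, 4 libraries) carry the same Cre together with floxed Klf2, which encodes the transcription factor KLF2. Cre at that locus is active in macrophages and neutrophils, and the LysM controls carry it too. The column names mark every library with the word veh, and the sources used here do not say what was given. Libraries are called LysM0 to LysM3 and K2KO0 to K2KO3 after the number in their column, which names the genotype but not the mouse. P-values therefore measure the spread between these libraries.

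Complement is a cascade of plasma proteins that marks microbes and dying cells for uptake. The classical pathway starts with C1q, which is built of A, B and C chains encoded by C1qa, C1qb and C1qc, and macrophages are a main source of it. C2 helps to form the enzyme that cleaves C3 in the classical and lectin pathways. C3 is the protein on which all pathways meet, factor B (Cfb) forms the C3-cleaving enzyme of the alternative pathway, and properdin (Cfp) stabilises that enzyme. C3ar1 and C5ar1 encode the receptors for the fragments C3a and C5a, which activate myeloid cells.

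Levels are given as FPKM, which divide a gene's fragments by its transcript length in kilobases and by the number of fragments mapped in the library. Read counts cannot be recovered from them, and the depth is unknown. Relative to LysM0, depth as judged from the step size of low values was 0.936 to 1.44, and a difference between the genotypes was not detectable (exact two-sided permutation test, p = 0.457). The summed FPKM were 497253 to 551608 in the LysM libraries and 448235 to 501965 in the K2KO libraries. Gapdh, a gene used by all cells, was listed at 0 to 0.500 FPKM while Actb, which encodes beta-actin, was at 2625 to 2949 FPKM in LysM libraries and 1962 to 2449 FPKM in the K2KO libraries, so genes listed near 0 are not taken here as unexpressed.

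Klf2 is the gene targeted in K2KO mice. It was at 44.1, 52.9, 64.7 and 72.8 FPKM in LysM0 to LysM3 and at 45.5, 41.6, 59.2 and 59.3 FPKM in K2KO0 to K2KO3, and the groups overlapped. Its log2 fold change was -0.18 (SE 0.17, limma adjusted p = 0.460), and its means of 58.7 ± 12.7 and 51.4 ± 9.22 FPKM (SD, n = 4 each) differed by less than the libraries spread (p = 0.429 by exact two-sided permutation). The log2 fold change was 0.039 after correction for GC content and transcript length, -0.08 with quantile normalization, -0.12 with upper-quartile scaling, -0.31 without LysM0, -0.07 without LysM3 and -0.09 without K2KO1, with limma adjusted p-values of 0.140 to 0.895 over all alternatives. Gene-level FPKM do not tell floxed exons from the others. Because Klf2 was not clearly lower there, the second group is called the libraries labelled K2KO.

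The libraries carried macrophage transcripts. All 8 macrophage markers examined passed the filter on low values, and the most abundant, Cd68, was at 1834 ± 129 FPKM (SD, n = 4) in LysM libraries and 1779 ± 104 FPKM (SD, n = 4) in those labelled K2KO. Adgre1, which encodes F4/80, was at 433 and 440 FPKM, and Csf1r, the receptor of the growth factor that keeps macrophages alive, was at 524 and 526 FPKM. The summed level of the 8 markers was 3885 to 4106 FPKM in LysM libraries and 3671 to 3800 FPKM in those labelled K2KO, so the groups did not overlap (exact two-sided permutation test, p = 0.0286, the smallest that 4 against 4 libraries can give). Cd14, the co-receptor for lipopolysaccharide, was at 999, 1099, 969 and 1046 FPKM in LysM0 to LysM3 and at 830.2, 664, 892 and 930.2 FPKM in K2KO0 to K2KO3. Its means of 1028 and 829 FPKM differed most among the 8 in FPKM, and its groups did not overlap (log2 fold change -0.32, limma adjusted p = 0.0630). Without K2KO3 it was called (adjusted p = 0.0345, over all alternatives 0.0345 to 0.912), and with quantile normalization its log2 fold change was -0.02. Among the 8, Mertk, a receptor for the uptake of dying cells, was higher (14.2 against 18.3 FPKM, log2 fold change 0.36, limma adjusted p = 0.0285), and Lyz2, the lysozyme M gene that carries Cre in all mice, was lower (18.6 against 13.2 FPKM, log2 fold change -0.49, limma adjusted p = 0.0260). The call of Mertk was lost without any 1 of LysM1, LysM2, LysM3, K2KO0, K2KO1 or K2KO2, and that of Lyz2 without LysM1, LysM3, K2KO0 or K2KO2 (limma adjusted p-values over all alternatives 0.0119 to 0.0938 and 0.0130 to 0.0989). Mertk was also not called after the correction for GC content and length (log2 fold change 0.28, limma adjusted p = 0.0752). Neither was called by ordinary least squares per gene or without a filter on low values. Markers of other cells were low, with summed levels of at most 3.25 FPKM for fibroblasts, 3.80 FPKM for dendritic cells, 0.678 FPKM for T cells, 5.28 FPKM for B cells, 0.794 FPKM for mast cells and 1.46 FPKM for erythroid cells in any library. Mast cell markers summed to 0.193 to 0.411 FPKM in LysM libraries and 0.447 to 0.794 FPKM in the others. Neutrophil markers summed to 186 to 315 FPKM and 175 to 306 FPKM, with S100a9 the most abundant at 132 and 127 FPKM. S100a8 was at 56.6 and 67.5 FPKM, Ngp at 35.4 and 36.4 FPKM and Ltf at 8.75 and 8.78 FPKM. Of the 8 neutrophil markers 7 passed the filter on low values, all but Ly6g, which defines neutrophils and was at 0.262 and 0.160 FPKM. One of the 7 tested neutrophil markers, Camp, was lower (13.6 against 6.40 FPKM, log2 fold change -1.14, limma adjusted p = 0.0178), a call lost without LysM1, LysM3 or K2KO2 (adjusted p over all alternatives 0.00456 to 0.0826). The call of Camp was also lost by ordinary least squares per gene and without a filter on low values. The part of these marker differences in the results for complement genes was not tested.

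Genes were compared with limma on the log2(FPKM + 0.1) scale over the 10920 genes with a mean of at least 1 FPKM, with Benjamini-Hochberg adjustment over all of them. Differential expression required an adjusted p below 0.05 together with a log2 fold change beyond 0.26 in either direction. By this rule 3 complement genes were lower in the libraries labelled K2KO, C1qa, C1qb and C1qc, and 5 of the 8 tested were not called. Of all tested genes 18.4% were differentially expressed, 8.61% lower and 9.84% higher. These 2014 genes became 337 without LysM3, 496 without K2KO2 and 1095 with the correction for GC content and length. The complement genes called were then 1, 2 and 3. In the main fit C1qa, C1qb and C1qc were also the 3 of 8 genes with groups that did not overlap, as had 23.1% of all tested genes. Unadjusted limma p-values were under 0.05 for 3 of the 8 and for 37.8% of all tested genes. Log2 fold changes were negative for 7 of the 8, with a median of -0.43 beside 0.01 over all tested genes, and 48.2% of all tested genes were negative. For the 5 other than C1q the median was -0.31, and -0.15 after correction for GC content and transcript length.

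**Figure D1:**
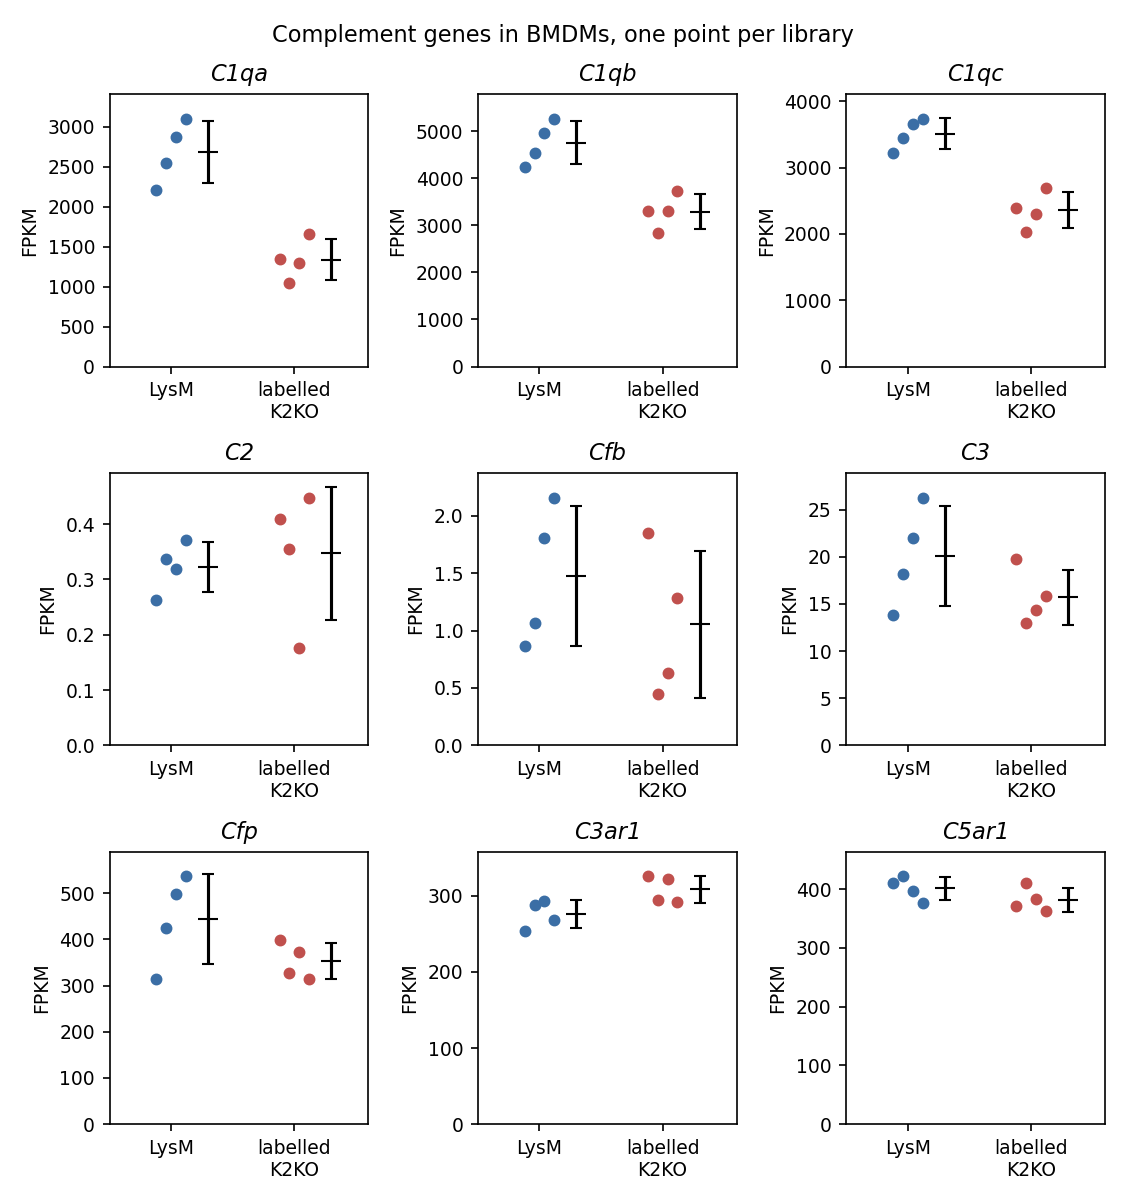
Expression (FPKM, linear axes starting at 0) of the 9 complement genes in the 4 LysM libraries (blue) and the 4 libraries labelled K2KO (red), with 1 point per library and bars for mean ± SD. C1qa, C1qb and C1qc are the 3 genes whose groups do not overlap.

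The C1q chain genes lie next to each other on the minus strand of chromosome 4 of GRCm38 (the assembly behind mm10). C1qb spans 136880129 to 136886187, C1qc 136889804 to 136893065 and C1qa 136895917 to 136898803, and each is protein coding. Bases upstream of the first annotated exon are shown for C1qb and C1qc, and for Fcna, a further recognition gene described later, because these are the complement genes called lower for which the table holds a promoter. The sequences come from the RefSeq promoter table of GRCm38.p6, run 5′ to 3′ on the minus strand, and end before the annotated gene or the RefSeq start. They cover chr4:136886201-136886450 for C1qb, chr4:136893066-136893164 for C1qc and chr2:25628031-25628224 for Fcna. Capitals mark CACCC, which reads GGGTG when on the other strand, and TGCTGA, part of the site bound by Maf factors.
C1qb: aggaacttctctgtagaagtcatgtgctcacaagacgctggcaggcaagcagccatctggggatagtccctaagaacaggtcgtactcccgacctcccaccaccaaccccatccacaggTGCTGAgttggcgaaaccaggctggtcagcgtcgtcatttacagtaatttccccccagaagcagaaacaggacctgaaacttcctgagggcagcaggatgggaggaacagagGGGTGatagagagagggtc
C1qc: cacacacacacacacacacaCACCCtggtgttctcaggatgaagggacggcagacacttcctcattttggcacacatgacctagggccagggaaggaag
Fcna: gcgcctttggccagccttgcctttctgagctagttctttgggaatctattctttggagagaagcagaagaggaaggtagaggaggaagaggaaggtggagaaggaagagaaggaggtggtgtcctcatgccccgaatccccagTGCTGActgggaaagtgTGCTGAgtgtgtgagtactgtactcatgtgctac

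Promoters were found for 6 of the 9 genes, and C1qa, C2 and Cfb were not used here. Over the whole window of 250 bases before and 50 after the RefSeq start, CACCC on either strand occurred 1 time at C1qb, 3 times at C1qc, 1 time each at C3, C3ar1 and Cfp and 2 times at C5ar1. At Fcna CACCC occurred 1 time, outside the bases shown. It was present in 57.5% of all 32851 promoters of this length, so most promoters hold it. TGCTGA occurred at C1qb, C3, C3ar1 and C5ar1 and 2 times at Fcna, and in 19.5% of all promoters. AANNGAAA, the core read by IRF factors, occurred at C1qc, C3 and C3ar1 (23.9% of all promoters), and TTCNNNGAA, read by STAT factors, occurred at none of the 6 (8.3% of all promoters). No match overlapped another in the bases shown.

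C1qa, the A chain gene, was at 2215, 2554, 2869 and 3102 FPKM in LysM0 to LysM3 and at 1346, 1052, 1292 and 1664 FPKM in K2KO0 to K2KO3. Each library labelled K2KO lay below the lowest LysM library. The means were 2685 ± 386 and 1338 ± 252 FPKM (SD, n = 4 each), so the libraries labelled K2KO held 49.9% of the LysM level. The log2 fold change was -1.01 (SE 0.15, 95% confidence interval -1.35 to -0.67, limma adjusted p = 0.00772). In bulk RNA, fewer cells that express a gene and less RNA per cell cannot be told apart.

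C1qb, the B chain gene, was at 4238, 4540.1, 4971 and 5265 FPKM in the LysM libraries and at 3295, 2843, 3297 and 3734 FPKM in those labelled K2KO. The groups did not overlap, and the mean fell from 4753 ± 455 to 3292 ± 364 FPKM (SD, n = 4 each), or 69.3% of the LysM level. Its log2 fold change was -0.53 (SE 0.11, 95% confidence interval -0.77 to -0.29, limma adjusted p = 0.0148).

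C1qc, the C chain gene, was at 3216, 3452, 3654 and 3738 FPKM in the LysM libraries and at 2392, 2029.5, 2308 and 2690.3 FPKM in those labelled K2KO. Again the highest library labelled K2KO was below the lowest LysM library. The mean fell from 3515 ± 232 to 2355 ± 272 FPKM (SD, n = 4 each), 67.0% of the LysM level, with a log2 fold change of -0.58 (SE 0.10, 95% confidence interval -0.81 to -0.36, limma adjusted p = 0.0112). Without LysM3, C1qa alone was called (1 gene in place of 3), with adjusted p = 0.0891 for C1qb and 0.0633 for C1qc by limma. Without K2KO2 the adjusted p of C1qb was 0.0534, and over all alternatives it ranged from 0.00773 to 0.411 for C1qb, from 0.00474 to 0.196 for C1qc and from 0.00408 to 0.0577 for C1qa, with all log2 fold changes negative. With quantile normalization the log2 fold change was -0.68 for C1qa, -0.26 for C1qb, which was then not called (adjusted p = 0.0570), and -0.26 for C1qc (adjusted p = 0.0207).

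Actb, an abundant gene outside the complement system, was also lower in the libraries labelled K2KO. It was at 2820.5 ± 138 FPKM in LysM libraries and 2188 ± 218 FPKM in the others (SD, n = 4 each), without overlap (log2 fold change -0.37, SE 0.09, limma adjusted p = 0.0239). Its call was lost without any 1 of LysM1, LysM2, LysM3, K2KO0, K2KO1 or K2KO2 (adjusted p over all alternatives 0.00990 to 0.963), and its log2 fold change turned to 0.0061 with quantile normalization. Actb was chosen after its values were seen, and a relation to the C1q genes was not tested.

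C1q transcripts were among the most abundant of these macrophages. Ranked by FPKM among the 23761 genes, C1qb was at places 6 to 7 in LysM libraries and 7 to 10 in those labelled K2KO. C1qc was at places 11 to 12 and 13 to 17, and C1qa at 17 to 21 and 31 to 51. The 3 genes summed to 1.94% to 2.19% of all FPKM in LysM libraries and to 1.29% to 1.61% in those labelled K2KO. On the FPKM scale, which is per length, the order of levels was C1qb, C1qc and C1qa in 8 of 8 libraries.

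The A chain gene fell further than the other chains in these libraries. The 3 ratios between the chains were formed after the values were seen, and each follows from the others. Their p-values are therefore descriptive. The ratio of C1qa to C1qb within a library was 0.523, 0.563, 0.577 and 0.589 in LysM0 to LysM3 and 0.409, 0.370, 0.392 and 0.446 in K2KO0 to K2KO3. Its mean went from 0.563 ± 0.029 to 0.404 ± 0.032 (SD, n = 4 each), a log2 difference of -0.48 (exact two-sided permutation test, p = 0.0286, adjusted over 3 ratios p = 0.0429), and the ratio was lower in all 4 libraries labelled K2KO than in any LysM library. The ratio of C1qa to C1qc went from 0.761 ± 0.061 to 0.565 ± 0.041 (SD, n = 4 each), a log2 difference of -0.43 with the same exact permutation p-values, again without overlap. The ratio of C1qc to C1qb was 0.741 ± 0.024 and 0.715 ± 0.011 (SD, n = 4 each), and its groups overlapped (log2 difference -0.05, exact permutation p = 0.143, adjusted p = 0.143). Without LysM3 the log2 difference of this last ratio was -0.07 (exact permutation p = 0.0286).

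**Figure D2:**
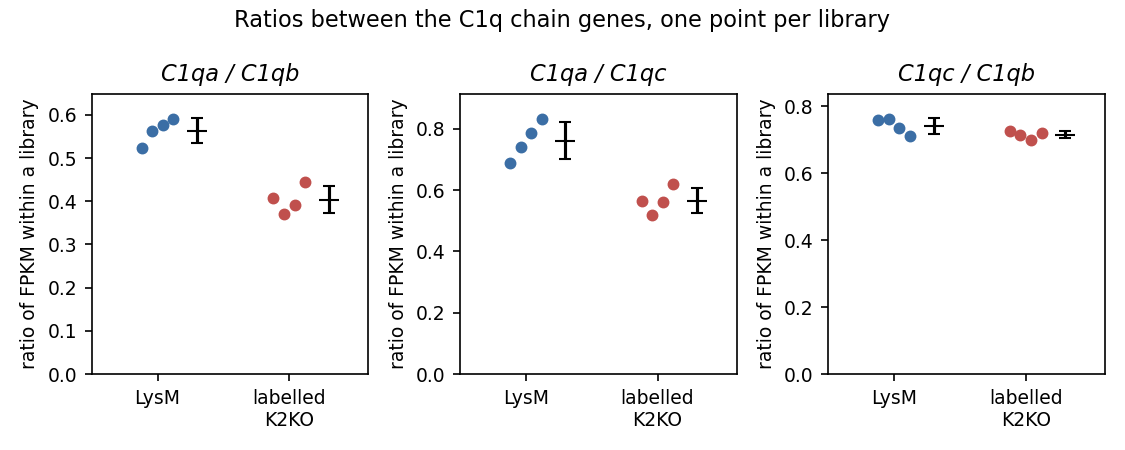
Ratio of FPKM between C1q chain genes within each library (linear axes starting at 0), for LysM (blue) and labelled K2KO (red), with 1 point per library and bars for mean ± SD. Both ratios with C1qa are lower in every library labelled K2KO, while the C1qc to C1qb ratios overlap.

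C3, the central component, lies on chromosome 17 from 57203970 to 57228136 on the minus strand. It was at 13.8, 18.2, 21.98 and 26.3 FPKM in the LysM libraries and at 19.7, 12.9, 14.4 and 15.8 FPKM in those labelled K2KO. LysM libraries spread widely, and K2KO0 lay above LysM0 and LysM1. The means were 20.1 ± 5.32 and 15.7 ± 2.93 FPKM (SD, n = 4 each), with a log2 fold change of -0.33 (SE 0.20, 95% confidence interval -0.77 to 0.11, limma adjusted p = 0.243). It was -0.49 without LysM0 and -0.19 without LysM3, and was called under none of the 20 alternatives.

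Cfb, which encodes factor B, lies on chromosome 17 from 34856374 to 34862518 on the minus strand. Its levels were low, at 0.869, 1.06, 1.80 and 2.16 FPKM in the LysM libraries and 1.85, 0.447, 0.633 and 1.28 FPKM in those labelled K2KO. Both groups spread more than 2 times between their lowest and highest library, and the log2 fold change of -0.54 had a wide interval (SE 0.43, 95% confidence interval -1.51 to 0.43, limma adjusted p = 0.379). It was -0.24 without K2KO1, -0.34 without LysM3, -0.85 without K2KO0 and -0.29 with a pseudocount of 1, and was called under none of the 20 alternatives. C2, its neighbour from 34862604 to 34898265, was at 0.262, 0.338, 0.318 and 0.371 FPKM and at 0.409, 0.355, 0.176 and 0.448 FPKM. Its mean of 0.335 FPKM over all libraries is under the minimum for the test, and its groups overlapped. Both genes share sequence with a read-through transcript, Gm20547, and C2 overlaps Zbtb12 on the opposite strand, so their FPKM are uncertain.

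Cfp, which encodes properdin, lies on chromosome X from 20925454 to 20931555 on the minus strand. It was far more abundant than C3 or Cfb, at 315, 425, 498 and 536 FPKM in the LysM libraries and 399, 328, 372 and 315 FPKM in those labelled K2KO. LysM0 was the lowest of the 8 libraries, just under K2KO3, and the other LysM libraries lay above every library labelled K2KO. The means were 444 ± 97.4 and 353 ± 38.6 FPKM (SD, n = 4 each), with a log2 fold change of -0.31 (SE 0.16, 95% confidence interval -0.66 to 0.05, limma adjusted p = 0.188). Without LysM0 the log2 fold change was -0.46 and passed the rule (limma adjusted p = 0.0261, over all alternatives 0.0261 to 0.672). It was -0.15 after correction for GC content and length and -0.10 with quantile normalization.

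Neither receptor of the C3a and C5a fragments was called. C3ar1, on chromosome 6 from 122847138 to 122856161 on the minus strand, was at 254, 288, 293 and 269 FPKM in the LysM libraries and at 325, 295, 322 and 291 FPKM in those labelled K2KO. K2KO0, K2KO1 and K2KO2 were above all LysM libraries, and K2KO3 was below LysM2. Its log2 fold change was 0.16 (SE 0.07, 95% confidence interval -0.0011 to 0.32, limma adjusted p = 0.135). It was 0.36 and passed the rule with quantile normalization (limma adjusted p = 0.0229, over all alternatives 0.0229 to 0.989), and -0.0021 after correction for GC content and length. C5ar1, on chromosome 7 from 16246743 to 16259540 on the minus strand, was at 411, 422, 396 and 377 FPKM and at 371, 410.0, 383 and 362 FPKM, with groups that overlapped. Its log2 fold change was -0.07 (SE 0.07, 95% confidence interval -0.22 to 0.08, limma adjusted p = 0.436), or 0.11 with quantile normalization and -0.01 with upper-quartile scaling.

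**Figure D3:**
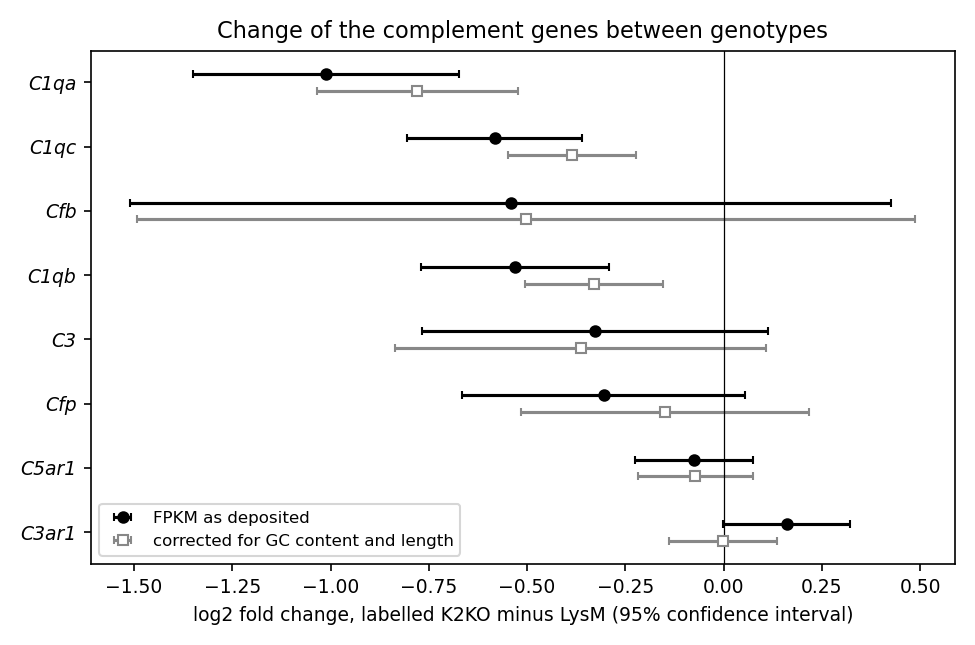
Log2 fold change (labelled K2KO minus LysM, points) with 95% confidence intervals (bars) from limma for the 8 tested complement genes, from FPKM as deposited (black) and after correction for GC content and transcript length (grey squares). The intervals of C1qa, C1qb and C1qc lie below 0 in both, and C3ar1 moves from 0.16 to -0.0021.

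The 9 genes spanned a wide range of levels. By mean FPKM over the 8 libraries, C1qb (4023), C1qc (2935) and C1qa (2012) were followed by Cfp (398), C5ar1 (391), C3ar1 (292), C3 (17.9), Cfb (1.26) and C2 (0.335). Cfp and C5ar1 were not ordered, since Cfp was higher in 4 of 8 libraries. Each other neighbour in this order held its place in 8 of 8 libraries, although the ranges over libraries overlapped for C1qb and C1qc, C1qc and C1qa, and Cfb and C2.

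Libraries of 1 genotype differed from each other in a shared way. After each gene's genotype mean was subtracted on the log2 scale, the deviations of the C1q chains correlated at r = 0.972 to 0.992 over the 8 libraries. C3 deviated with Cfb (r = 0.891) and with Cfp (r = 0.889). The deviations of C5ar1 ran against those of C1qa (r = -0.885), C1qb (r = -0.909), C1qc (r = -0.875) and Cfb (r = -0.859). C3ar1 deviated with the C1q chains at r = 0.177 to 0.181. These are descriptions over 8 libraries. Values of 1 library share its depth and preparation, and the part of these in the correlations was not tested.

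Changes of all genes ran with the GC content of their longest transcript. In the eighth of genes with the lowest GC content 24.9% of genes were called higher and 1.76% lower, and in the eighth with the highest 1.98% were called higher and 21.9% lower. C1qa has a GC content of 59.5%, C1qb 57.4% and C1qc 57.5%, while C3ar1 has 43.0%. Among genes within 1 percentage point of C1qa the median log2 fold change was -0.16 and 23.4% were lower. For C1qb these values were -0.14 and 17.7%, and for C1qc -0.14 and 17.9%. Around C3ar1 the median was 0.15 and 18.2% were higher. After each library was corrected by loess for GC content and transcript length, the log2 fold change was -0.78 for C1qa (SE 0.11, limma adjusted p = 0.0102), -0.33 for C1qb (SE 0.08, limma adjusted p = 0.0337) and -0.39 for C1qc (SE 0.07, limma adjusted p = 0.0200). With the column number added to that correction as a replicate block, C1qa and C1qc were called and C1qb was not (limma adjusted p = 0.0567). What lies behind the GC trend was not tested.

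**Figure D4:**
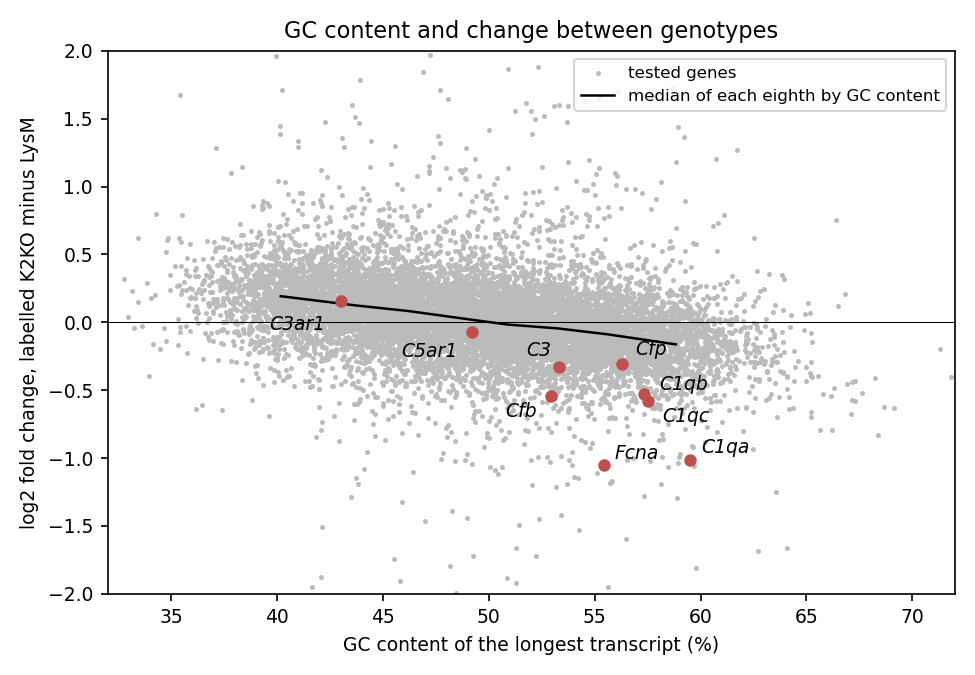
Log2 fold change (labelled K2KO minus LysM) against the GC content of the longest transcript (%) for the tested genes (grey), with the median of each eighth by GC content (black line) and the named complement genes (red). The medians go from 0.19 in the lowest eighth to -0.16 in the highest, C1qa and Fcna lie furthest below the line among the named genes, and 86 genes lie outside the axes.

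The rest of the complement system was followed with 52 further genes, of which 41 are listed and 15 passed the filter. Of these 15, 1 was lower (Fcna), none was higher, and 14 were not called, where 18.4% of all tested genes were called and 8.61% were lower. An unadjusted p under 0.05 was found for 1 of the 15 and for 37.8% of all tested genes. The median log2 fold change of the 15 was -0.02, with 9 negative and 6 positive. The other 26 listed genes had means of at most 0.749 FPKM, among them C4b, Fcnb, Serping1, Clu and Vsig4, and Cfd, Hc, C7 and Vtn were listed at 0 in every library. The 11 genes that are not listed were not analysed here.

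Fcna encodes ficolin A, a recognition molecule of the lectin pathway that, like C1q, joins a collagen-like stem to a binding head and is made by macrophages. It lies on chromosome 2 from 25624666 to 25628030 on the minus strand. It was at 16.8, 21.004, 19.2 and 22.8 FPKM in LysM0 to LysM3 and at 9.92, 9.25, 9.41 and 9.47 FPKM in K2KO0 to K2KO3. The libraries labelled K2KO lay close together and below every LysM library. The mean fell from 19.9 ± 2.56 to 9.51 ± 0.289 FPKM (SD, n = 4 each), 47.7% of the LysM level, with a log2 fold change of -1.05 (SE 0.09, 95% confidence interval -1.25 to -0.85, limma adjusted p = 4.34e-04). It was called under all 20 alternatives, with log2 fold changes of -1.13 to -0.89 and adjusted p-values of 1.65e-04 to 0.0183.

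The further genes with a mean of at least 10 FPKM other than Fcna encode mostly surface receptors and regulators. Itgam and Itgb2, the subunits of complement receptor 3, were at 66.4 and 56.3 FPKM and at 186 and 186 FPKM. Cr1l, which encodes the regulator Crry, was at 23.1 and 23.8 FPKM. Cd93, a surface protein of myeloid cells, was at 49.98 and 55.2 FPKM. C1qbp was at 54.1 and 53.1 FPKM, Calr, which encodes calreticulin, at 208 and 209 FPKM, and Lrp1, its partner in the uptake of dying cells, at 61.2 and 59.6 FPKM. None of these 7 was called, with limma adjusted p-values from 0.192 for Cd93 to 0.981 for Calr, and with 18.4% of all tested genes called, a count of 0 among 7 says little about them as a group. Cr1l, Itgam and Itgb2 have near-identical copies in the genome, so their FPKM are uncertain.

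**Figure D5:**
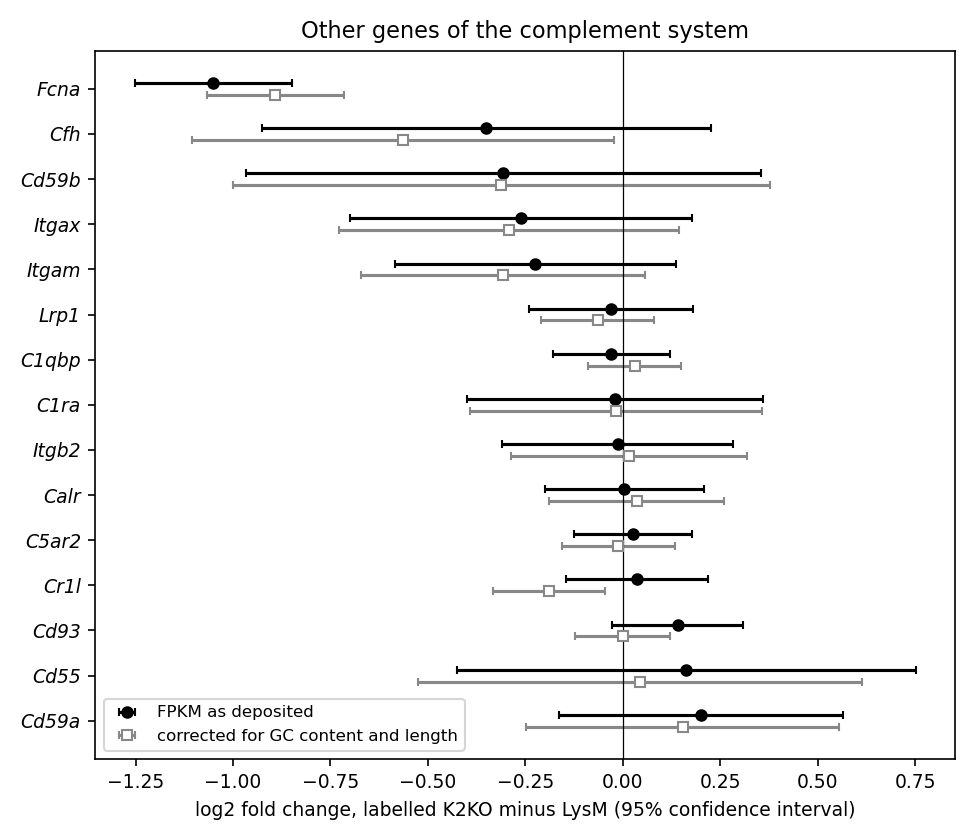
Log2 fold change (labelled K2KO minus LysM, points) with 95% confidence intervals (bars) from limma for the 15 tested further complement genes, from FPKM as deposited (black) and after correction for GC content and transcript length (grey squares). Fcna, at -1.05, is the 1 gene that passes the rule.

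Among the 10917 other tested genes, the 3 whose profile over the 8 libraries was most like the mean log2 profile of the C1q chains were Arrb2 (Pearson r = 0.996), Mif4gd (r = 0.993) and Tatdn3 (r = 0.993). Arrb2, which encodes beta-arrestin 2, a signalling adaptor of G protein-coupled receptors, was at 306 FPKM in LysM libraries and 219 FPKM in those labelled K2KO (log2 fold change -0.48). Mif4gd was at 67.7 and 52.7 FPKM (log2 fold change -0.36), and Tatdn3 at 6.51 and 5.08 FPKM (log2 fold change -0.35). Since they were picked for a profile whose main feature is the difference between the genotypes, their lower levels are a description and carry no test. The nearest tested gene to the C1q genes, and the only other one within 250 kb, was Zbtb40, chosen after its values were seen. It was at 3.53 and 3.07 FPKM with a log2 fold change of -0.20 (SE 0.08, limma adjusted p = 0.120).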

How the data were processed

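BMDM libraries of 4 LysM mice and 4 mice labelled K2KO were compared. The authors deposited FPKM per gene, computed with Cufflinks against mm10. The paper names TopHat2 for alignment and the submitters' processing notes name STAR, Cufflinks and Cuffdiff, with no versions, and the labels and the paper name different RNA kits. Replicates were not pooled. The 23761 listed genes were matched by Ensembl identifier to GENCODE M21 (23645 matched). The paper describes a stranded total RNA kit, and whether strand was used in counting is not given in the sources used here.

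The complement genes and the lists were chosen with earlier results of these data known. limma 3.58.1 (R 4.3.3; lmFit, eBayes with trend) was run on log2(FPKM + 0.1) for the 10920 genes with a mean of at least 1 FPKM, with no covariate. The pseudocount of 0.1 understates the fold change of low genes. For single values an exact two-sided permutation test over libraries was used. The procedure was tested on simulated data. Named genes were the 9 complement genes, further complement genes that were called or had a mean of at least 10 FPKM, Klf2, cell type markers, the 3 genes most like the C1q profile, and overlapping or near-identical genes (BLAST 2.17.0, 95% identity over 200 bases). Untested further genes were named after their values were seen. Each of 8 libraries was left out in turn, and other pseudocounts, filters, scalings, tests, thresholds, a replicate block and a correction for GC content and length (loess, span 0.3) were tried. Chain ratios, Actb, and the alternatives for Fcna, Actb, the markers and the genes of like profile, were added after seeing the data.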

Additional observations from a re-analysis of the deposited data

Results flagged for a closer look

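In 2 of 76 groups of 4 libraries examined, 1 library stood far from the other 3 by Dixon's test, where chance gives about 1 in 20, or 3.8 groups. Csf1r was at 546.7 FPKM in LysM3 and at 514.7 to 517.5 FPKM in the other LysM libraries. The summed level of the T cell markers was 0.554 FPKM in LysM1 and 0.201 to 0.243 FPKM in the other LysM libraries.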

How the results depend on the processing

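Without a filter on low values 483 genes were differentially expressed in place of 2014, and 0 of the complement genes, with adjusted p-values of 0.0577 for C1qa, 0.411 for C1qb and 0.196 for C1qc. By ordinary least squares per gene 746 genes passed, at an absolute log2 fold change over 1 there were 110 with C1qa as the 1 complement gene, and with the GC and length correction 1095. Leaving out 1 library gave 337 (without LysM3) to 2837 genes (without K2KO3), with 1030 or fewer without any 1 of the 6 libraries other than LysM0 and K2KO3, and 1 (without LysM3) to 4 complement genes (without LysM0, where Cfp joined). The C1qc to C1qb log2 difference then ran from -0.0717 to -0.0387. With quantile normalization C1qb did not pass (log2 fold change -0.26, adjusted p = 0.0570), C3ar1 passed, and C5ar1 turned to 0.11 and Actb to 0.0061. With the GC and length correction, with or without the block, C3ar1 turned to -0.0021 and Klf2 to 0.039. The number of other complement genes called was 1 under all 22 alternatives. Of the differentially expressed genes 53.3% were higher, against 72.7% with upper-quartile scaling, where the C1q genes were still lower. The causes of these changes were not tested.

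Column numbers 0 to 3 showed no pairing of the libraries over all tested genes. Deviations of same-numbered libraries correlated at -0.07, 0.02, 0.07 and -0.06, and only LysM2 correlated best with its own number. Single genes differed, and Ltf was at 6.35, 10.3, 7.63 and 10.7 FPKM in LysM0 to LysM3 and 6.45, 10.2, 7.08 and 11.4 FPKM in K2KO0 to K2KO3. With a replicate block the SE went from 0.17 to 0.078 for Klf2 and from 0.15 to 0.11 for C1qa. It rose for C3 (0.20 to 0.21) and Cfp (0.16 to 0.17), and fell for the other tested complement genes. These values do not settle whether same-numbered libraries belong together. A replicate block gave 2057 genes and 3 complement genes, and with the GC and length correction 864 genes and 2 complement genes (C1qb at adjusted p = 0.0567). FPKM carry no read counts, so depth limits could not be set for low genes such as C2 and Cfb.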
